A study of Mus musculus with 10 samples.

Results

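The proteasome genes of mouse bone marrow progenitor cells are described here. They are the 48 of 12791 genes of the authors' deposited table whose symbol starts with Psma to Psmg followed by a digit. By role they comprise 7 genes of the alpha ring and 7 of the constitutive beta ring of the core particle, the 3 immunoproteasome genes Psmb8, Psmb9 and Psmb10, 9 genes of the base and 8 of the lid of the regulatory particle, 4 activators, the inhibitor Psmf1, and 7 assembly chaperones. Psma8, the testis form of an alpha subunit, and Psmc3ip, which matches by name alone and encodes a partner of meiotic recombination, complete the 48. The thymus subunit Psmb11 was not analysed here.

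The cells were progenitors without lineage markers or Sca-1 but with c-Kit, sorted from bone marrow of C57BL/6 mice, and their RNA was measured by bulk sequencing. The labels give 3 groups. The KDR-positive tumor group has 3 libraries and the KDR-negative tumor group 4, both from mice carrying GL261, a mouse glioma line, at week 4. The naive group has 3 libraries from mice with no tumor. KDR, a receptor for vascular endothelial growth factor, was read through GFP knocked into its gene in the mice that received the tumor. No label says whether the libraries of a group came from separate or pooled mice, so the p-values measure only the spread between these samples, which may be technical.

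The proteasome degrades proteins marked with ubiquitin. Its core particle (20S) is a barrel of stacked alpha and beta rings, with the proteolytic sites on the beta subunits encoded by Psmb5, Psmb6 and Psmb7. The regulatory particle (19S) caps the barrel: its base holds ATPases that unfold the substrate, and its lid removes the ubiquitin chain. Cells of the blood lineage can build the immunoproteasome, in which Psmb8, Psmb9 and Psmb10 replace the catalytic subunits and change which peptides reach class I molecules. The activator of Psme1 and Psme2 is, like the immunoproteasome, induced by interferon gamma.

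The authors' deposited table holds 2 comparisons between groups and no value per library, so depth, the value in each sample and overlap of samples cannot be given. Its header does not name the groups. The comparisons are called the first and the second, and a positive log2 fold change means a higher level in what is called the numerator group of that comparison. Levels of a group in CPM, the unit that the header names, were derived from the mean level, the fold change and a numerator weight for each comparison. The weights were chosen to bring the derived denominator levels of both comparisons together, so their match is in part the aim of the fit. Around a common shift these levels then differed by a median of 0.002 log2 units over 9044 genes above 3 log2 CPM. Derived CPM summed to 2127125 in the first numerator group and to 756537 in its denominator group. Equal totals would therefore lower every log2 fold change of the first comparison by 1.49, and directions below are on the deposited scale, with equal totals given for each group of genes. Genes of other cells moved in the same comparison. All 18 measured macrophage markers were higher in the first numerator group, against 18.8% of all genes. They summed to 6277 CPM there and to 309 CPM in the denominator group. The lowest of them, Timd4, was at 65.6 CPM in the numerator group and 1.45 CPM in the denominator group. In bulk RNA, fewer cells of a type and less RNA per cell cannot be told apart. The part of these cells in the results below was not tested.

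On the deposited scale 28 of the 48 genes were higher in the first numerator group and none was lower, at an adjusted p under 0.05 over all genes of the authors' deposited table. Among all 12791 genes 18.8% were called higher and 3.49% lower. The median log2 fold change of the 48 was 0.91, against -0.13 for all genes, while at equal totals it was -0.58 and calls remade approximately gave 1 higher (Psmb3) and 22 lower. Among all 12791 genes at equal totals the median was -1.62, with 4.17% higher and 57.0% lower. Equal totals take the same amount from every gene, so the order of the genes stays as it was by construction. On the deposited scale 45 of the 48 lay above the median gene. The members nearest the threshold per the authors' deposited table were Psmc2 at 0.79 (adjusted p = 0.0372) inside it and Psmd7 at 0.72 (adjusted p = 0.0585) outside. A standard error derived from the deposited p had a median of 0.29 log2 units. It was between 0.28 and 0.49 for the members other than Psma8 and Psmd9, and 1.09 for Psma8. None is given for Psmd9, whose p was above 0.9, but its lower call at equal totals used such an error.

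**Figure D1:**
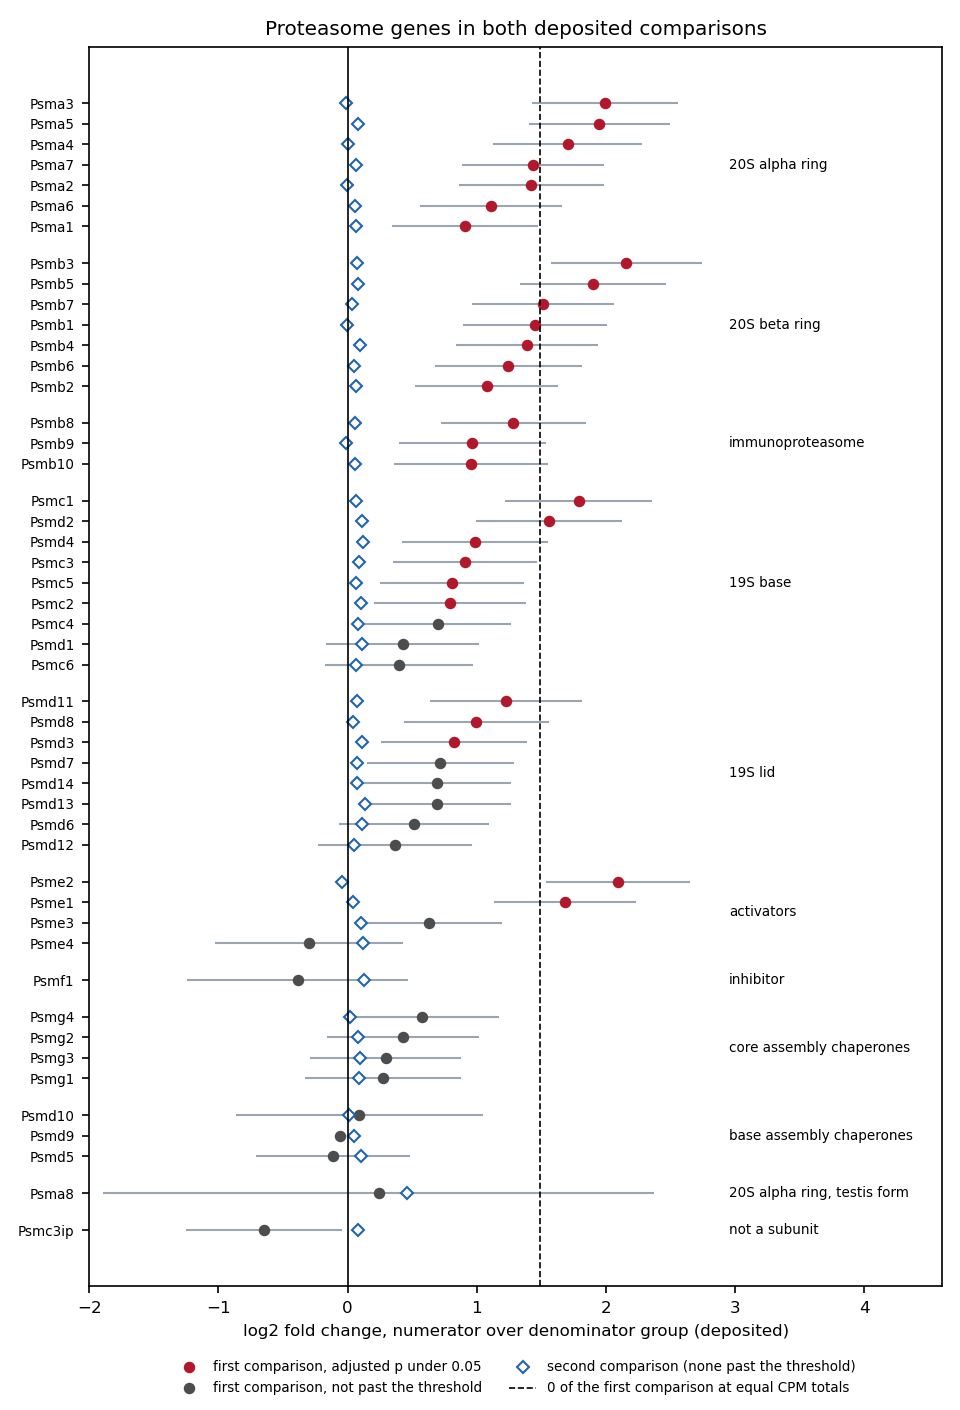
Log2 fold change of each proteasome gene, by role, in the first comparison (filled) and the second (open), numerator over denominator group. Grey bars are approximate 95% intervals of the first comparison derived from the deposited p, with none for Psmd9, whose p was above 0.9. All 14 constitutive core genes are past the threshold of the first comparison on the deposited scale, and 8 of them lie left of the dashed line, which marks 0 at equal totals.

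All 14 constitutive core genes were higher in the first comparison on the deposited scale, against 18.8% of all genes. Their log2 fold changes ran from 0.91 to 2.16, with a median of 1.44. At equal totals 6 of the 14 lay above 0, their median was -0.05 and only Psmb3 kept an approximate call. Other genes were often called higher at the denominator levels of these genes too, 66.0% at 6 to 7 log2 CPM and 86.6% at 7 to 8. In the alpha ring Psma3 had a derived level of 465 CPM in the numerator group, against 117 CPM in the denominator group. The log2 fold change of 1.99 (adjusted p = 1.1e-10) was the largest of the ring per the authors' deposited table. Psma1, with the smallest fold change of the ring, had 160.4 CPM in the numerator group and 85.5 CPM in the denominator group. Its log2 fold change per the authors' deposited table was 0.91 (adjusted p = 0.009). The alpha subunits form the gate of the barrel, and the other 5, Psma2, Psma4, Psma5, Psma6 and Psma7, lay between these. In the beta ring Psmb3, a subunit without proteolytic activity, had 1049.6 CPM in the numerator group and 235 CPM in the denominator group. It had the largest log2 fold change of all 48 genes per the authors' deposited table, at 2.16 (adjusted p = 1.8e-11). Psmb2, another such subunit, had the smallest fold change of its ring, with 194 CPM in the numerator group and 92.1 CPM in the denominator group. Its log2 fold change was 1.08 (adjusted p = 0.00096) per the authors' deposited table.

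The catalytic subunits and their immunoproteasome counterparts can be set side by side. Psmb5, which carries the chymotrypsin-like site, had 738 CPM in the numerator group and 198 CPM in the denominator group. Its counterpart Psmb8 had 204 CPM in the numerator group and 83.8 CPM in the denominator group. Their log2 fold changes per the authors' deposited table were 1.28 for Psmb8 (adjusted p = 7.2e-05) and 1.90 for Psmb5 (adjusted p = 1.1e-09). Both were higher on the deposited scale, and at equal totals Psmb8 lay below 0 and Psmb5 above it. Psmb9 had 185 CPM in the numerator group and 94.7 CPM in the denominator group. Psmb6, the caspase-like subunit that it replaces, had 162 CPM in the numerator group and 68.2 CPM in the denominator group. Per the authors' deposited table the log2 fold changes were 0.97 for Psmb9 (adjusted p = 0.0054) and 1.24 for Psmb6 (adjusted p = 0.00015). Psmb10 had 121 CPM in the numerator group and 62.4 CPM in the denominator group. Psmb7, the trypsin-like subunit that it replaces, had 363 CPM in the numerator group and 128 CPM in the denominator group. Their log2 fold changes per the authors' deposited table were 0.95 for Psmb10 (adjusted p = 0.0094) and 1.51 for Psmb7 (adjusted p = 8.7e-07).

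In each pair the immunoproteasome gene had the smaller fold change, a difference that does not depend on the totals but does depend on the trend over level described below. It was -0.62 log2 units for Psmb8 less Psmb5, -0.28 for Psmb9 less Psmb6 and -0.56 for Psmb10 less Psmb7, each with an approximate standard error of 0.41 if both genes vary independently. None of the 3 exceeded 2 such errors. Less the median of the 200 other genes nearest in level, an alternative chosen after seeing the data, 2 of the 3 differences changed sign. They were then 0.22 for Psmb8 less Psmb5, -1.0002 for Psmb9 less Psmb6 and 0.69 for Psmb10 less Psmb7. Of these the value for Psmb9 alone exceeded 2 such errors. Less the median of other genes in the same step of 1 log2 CPM, the differences were 0.23 for Psmb8, -0.28 for Psmb9 and 0.35 for Psmb10. The value for Psmb9 thus depended on the adjustment. The immunoproteasome genes made up 28.7% of the summed CPM of these 6 genes in the numerator group and 37.9% in the denominator group of the first comparison. In the second comparison they made up 37.9% in the numerator group and 38.3% in the denominator group.

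Promoter sequences of the catalytic genes with a motif match are shown. Induction of the proteasome and of the immunoproteasome is known to pass through elements near the start of these genes. Psmb7 and Psmb10 had no match to a motif searched, or no promoter to search, and are not shown. The sequences are from RefSeq (GRCm38.p6), run 5′ to 3′ on the gene's strand and end 1 base before the annotated start. Psmb5 is chr14:54617996-54618095 on the minus strand and Psmb6 is chr11:70525257-70525356 on the plus strand, with the antioxidant response element TGACNNNGC, bound by NRF1 and NRF2, in capitals. Psmb8 is chr17:34197995-34198194 on the plus strand, with the gamma-activated site TTCNNNGAA in capitals. For Psmb9 the whole stretch of 225 bases to the start of Tap1, the peptide transporter gene on the other strand, is chr17:34187331-34187555 on the minus strand, with an NF-Y box (CCAAT, here on the other strand) in capitals.
Psmb5: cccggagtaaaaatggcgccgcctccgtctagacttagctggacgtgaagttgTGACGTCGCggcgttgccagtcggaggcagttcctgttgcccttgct
Psmb6: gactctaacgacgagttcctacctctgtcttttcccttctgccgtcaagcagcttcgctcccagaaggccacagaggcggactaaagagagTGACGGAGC
Psmb8: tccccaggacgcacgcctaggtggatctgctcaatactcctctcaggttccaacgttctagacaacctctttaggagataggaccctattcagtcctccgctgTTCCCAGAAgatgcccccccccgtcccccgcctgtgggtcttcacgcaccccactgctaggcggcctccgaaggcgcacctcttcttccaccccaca
Psmb9: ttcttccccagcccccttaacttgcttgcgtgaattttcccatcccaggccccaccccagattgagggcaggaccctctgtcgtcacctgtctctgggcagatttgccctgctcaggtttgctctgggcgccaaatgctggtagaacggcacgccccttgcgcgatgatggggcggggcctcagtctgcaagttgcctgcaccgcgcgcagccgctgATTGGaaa

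Across the proteasome genes these motifs were about as frequent as in other promoters or rested on few genes. Of 40 members with a RefSeq promoter, 5 held TGACNNNGC on either strand within 250 bases before the start (12.5%), against 14.3% of 8967 genes of the table with a promoter. They were Psmb5, Psmb6, Psmc6, Psmd12 and Psmd9, of which the first and second alone were called higher. The gamma-activated site TTCNNNGAA lay in 2 of 40 members (5%), Psmb8 and Psmg1, against 7.38% of the table's genes. The interferon stimulated response element lay in 3 of 40 (7.5%), Psmb3, Psmd4 and Psmd9, against 3.35%. CCAAT lay in 14 of 40 (35%), Psmb9 among them, against 40.8%. Psmb9 matched none of the other motifs searched. A match is a description of the letters and no motif was searched beyond this window.

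The regulatory particle had a smaller median fold change than the core on the deposited scale, and a median below 0 at equal totals. In the first comparison 6 of 9 genes of the base and 3 of 8 of the lid were higher. Together they were 9 of the 17 genes, against 18.8% of all genes, and none of the 17 was lower. The median log2 fold change of the 17 was 0.79. At equal totals it was -0.70 and 11 of the 17 were approximately lower, against 57.0% of all genes. In the base the ATPase gene Psmc1 had 316 CPM in the numerator group and 91.4 CPM in the denominator group. Its log2 fold change per the authors' deposited table was 1.79 (adjusted p = 1.3e-08). Psmd2, the scaffold that docks ubiquitin shuttle factors, had 254 CPM in the numerator group and 86.3 CPM in the denominator group, with a log2 fold change of 1.56 per the authors' deposited table (adjusted p = 8.4e-07). The other ATPases spread widely. Per the authors' deposited table Psmc3 stood at 0.91, Psmc5 at 0.81 and Psmc2 at 0.79, all past the threshold, beside Psmc4 at 0.70 (adjusted p = 0.0648) and Psmc6 at 0.40 (adjusted p = 0.387), which did not pass. Psmc6, with the smallest fold change of the base, had 90.3 CPM in the numerator group and 68.6 CPM in the denominator group. The ubiquitin receptor Psmd4 passed at 0.98 per the authors' deposited table, and the scaffold Psmd1 did not, at 0.43 (adjusted p = 0.358).

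In the lid Psmd11, a scaffold whose amount is known from human embryonic stem cells to bear on assembly, had 129 CPM in the numerator group and 55.2 CPM in the denominator group. Its log2 fold change of 1.23 was the largest of the lid per the authors' deposited table (adjusted p = 0.00038). Psmd8 at 0.997 and Psmd3 at 0.82 also passed per the authors' deposited table. The other 5 lid genes did not. Among them Psmd14, the deubiquitinase that strips the chain from the substrate, had 106 CPM in the numerator group and 65.7 CPM in the denominator group, and a log2 fold change of 0.69 per the authors' deposited table (adjusted p = 0.072). Psmd7, its partner in the lid, stood at 0.72, Psmd13 at 0.69 (adjusted p = 0.0759), Psmd6 at 0.51 (adjusted p = 0.238) and Psmd12, the smallest, at 0.36 (adjusted p = 0.456) per the authors' deposited table. Psmd12 had 79.8 CPM in the numerator group and 62.0 CPM in the denominator group. At equal totals all 8 lid genes lay below 0, with a median of -0.79.

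The activators split. Psme2 had 495 CPM in the numerator group and 116 CPM in the denominator group. For Psme2 a log2 fold change of 2.09 per the authors' deposited table carried the smallest adjusted p of all 48 genes, 7.5e-12. Psme1, which forms a ring with it, had 334 CPM in the numerator group and 104 CPM in the denominator group, and a log2 fold change of 1.68 per the authors' deposited table (adjusted p = 2.8e-08). At equal totals both stayed above 0 but lost their calls. Psme3, the nuclear activator that interferon does not induce, had 115 CPM in the numerator group and 74.7 CPM in the denominator group. Its log2 fold change per the authors' deposited table was 0.63 (adjusted p = 0.116). The difference in log2 fold change was 1.47 for Psme2 less Psme3 and 1.06 for Psme1 less Psme3, with an approximate standard error of 0.41 for Psme2 and 0.40 for Psme1 if the genes vary independently. Less the median of the 200 genes nearest in level the differences were 0.72 for Psme2 and 0.48 for Psme1. This pairing was made after the values were seen. Psme4, the large nuclear activator, had 22.0 CPM in the numerator group and 27.0 CPM in the denominator group, with a log2 fold change of -0.30 per the authors' deposited table (adjusted p = 0.664). The inhibitor Psmf1 had 17.1 CPM in the numerator group and 22.4 CPM in the denominator group, with a log2 fold change of -0.39 per the authors' deposited table (adjusted p = 0.617). Reads of Psme2 and of its close copy Psme2b may have been shared, so the value of Psme2 is uncertain to that extent.

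No assembly chaperone passed the threshold on the deposited scale. At equal totals all 7 were approximately lower, with the call of Psmd9 resting on an error from a p above 0.9. Their median was then -1.22, against a median of -1.62 and 57.0% lower for all genes. Per the authors' deposited table the core chaperones stood at 0.57 for Psmg4 (adjusted p = 0.187), 0.43 for Psmg2 (adjusted p = 0.349), 0.29 for Psmg3 (adjusted p = 0.563) and 0.27 for Psmg1 (adjusted p = 0.617). Psmg4 had 111 CPM in the numerator group and 74.5 CPM in the denominator group, and Psmg1 had 76.0 CPM in the numerator group and 62.9 CPM in the denominator group. The base chaperones, which hold the ATPases during assembly, stood at 0.09 for Psmd10 (adjusted p = 0.997), -0.06 for Psmd9 (adjusted p = 1) and -0.11 for Psmd5 (adjusted p = 0.894) per the authors' deposited table. Psma8 was rare, with 7.19 CPM in the numerator group and 6.08 CPM in the denominator group, and stood at 0.24 per the authors' deposited table (adjusted p = 0.975). Psmc3ip had the lowest log2 fold change of the 48, at -0.65 per the authors' deposited table (adjusted p = 0.125), with 26.1 CPM in the numerator group and 40.9 CPM in the denominator group.

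The make-up of the proteasome transcripts differed between the groups of the first comparison in a way that no common scaling alters. Core genes supplied 55.6% of the summed CPM of the 48 genes in the numerator group and 43.2% in the denominator group. The regulatory particle supplied 24.1% in the numerator group and 31.3% in the denominator group, and the assembly chaperones 4.62% in the numerator group and 9.36% in the denominator group. The ratio of core to regulatory particle was thus 2.31 in the numerator group and 1.38 in the denominator group. In the second comparison it was 1.33 in the numerator group and 1.36 in the denominator group. With no value per library these shares carry no error and no test. They are read only between groups, since the sources used here do not say whether CPM were scaled to transcript length.

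**Figure D2:**
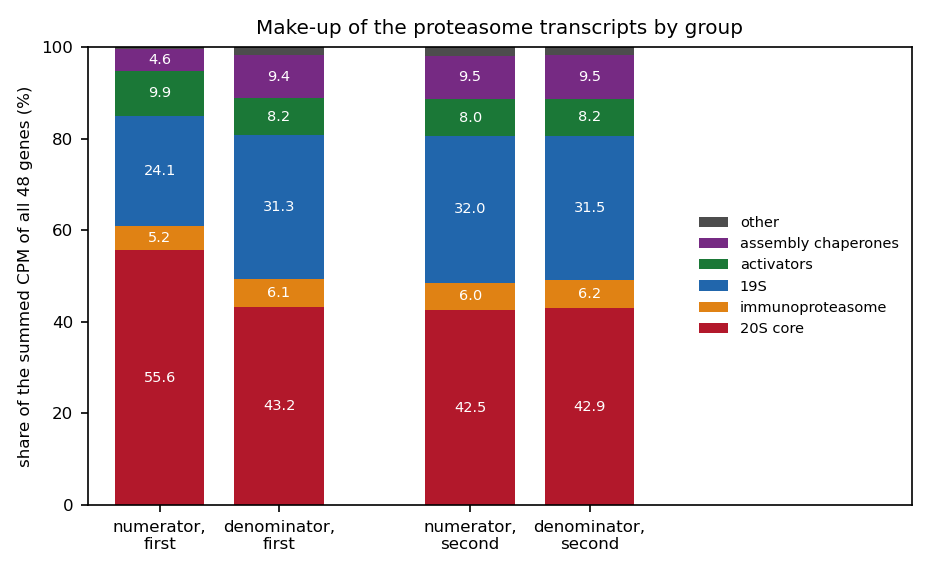
Share of the summed derived CPM of all 48 proteasome genes taken by each role (percent), in the numerator and denominator group of the first and second comparison. Core genes take 55.6% in the first numerator group and between 42.5% and 43.2% in the other columns. The shares are not adjusted for the trend over level.

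The order of the members followed their level. Across the 48 genes Spearman's rho between the log2 fold change of the first comparison and the derived denominator level was 0.87, and across the 9459 genes of the table above 3 log2 CPM it was 0.52. Both values come from the same measurements, genes are not independent replicates, and the rho is given as a description. Of 29 members at 6 to 7 log2 CPM in the denominator group 21 were called higher (72.4%), with a median of 0.997, while 66.0% of the 979 other genes at that level were called higher, with a median of 1.01. At 5 to 6 log2 CPM 3 of 11 members were called higher (27.3%), against 15.8% of 2948 other genes, and the medians were 0.36 for members and 0.10 for the others. At 7 to 8 log2 CPM 4 of 4 members and 86.6% of 172 other genes were higher. Taking off the median of the 200 other genes nearest in level left the members with a median of 0.00, with 25 of 48 above 0. Core genes then had a median of 0.01 and the regulatory particle -0.01.

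**Figure D3:**
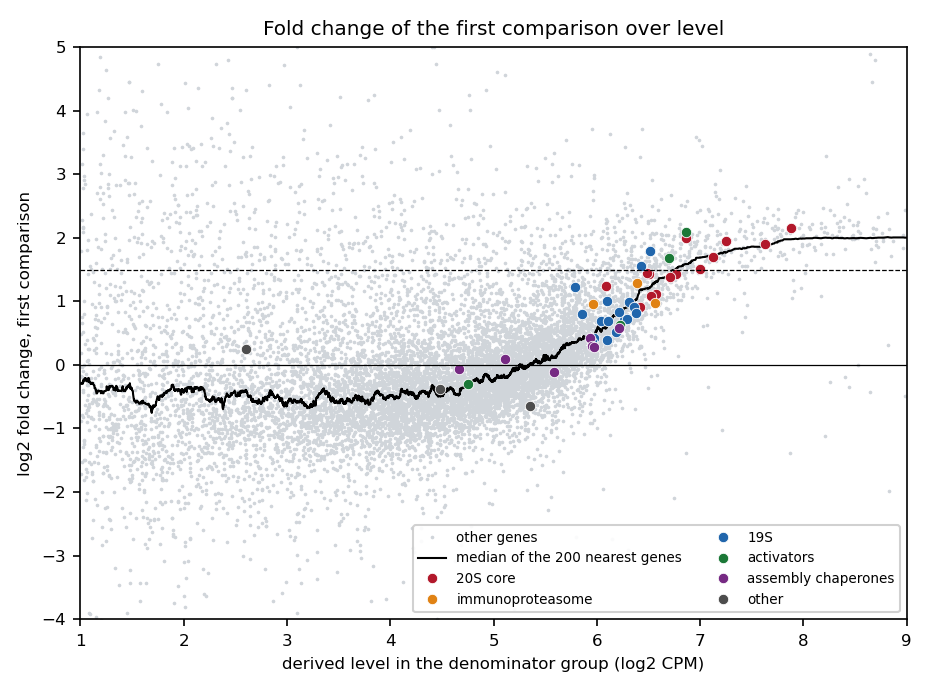
Log2 fold change of the first comparison (numerator over denominator group) over the derived log2 CPM of the denominator group, for all genes between 1 and 9 log2 CPM (grey, those beyond -4 and 5 not drawn) and the proteasome genes by role. The black line is the median of the 200 nearest other genes, and the dashed line is 0 at equal totals. The proteasome genes lie along the line, 25 of 48 above it.

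A few members stood off that line. Psmd11 was 0.87 log2 units above it and was the 1 member with an approximate call there. Psmb6 was 0.67 above, Psmc1 0.56, Psmb10 0.52 and Psme2 0.51. Psma8 was 0.65 above, within its approximate standard error of 1.09. On the other side Psmc3ip was 0.66 below and Psmb9 0.33 below. The immunoproteasome thus lay on both sides, with Psmb8 at 0.24 above. Transcript length ran with the fold change as well, at a rho of -0.33 across the 48 members and -0.42 across 8282 genes above 3 log2 CPM. The part of length and of level in these fold changes was not tested.

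In the second comparison no proteasome gene passed the threshold in either direction, and none had an unadjusted p under 0.05. Among all 12791 genes 0.0704% were called higher and 0.0391% lower. Log2 fold changes ran from -0.04 for Psme2 to 0.14 for Psmd13 per the authors' deposited table, with Psma8 alone beyond at 0.46. The median was 0.07, against 0.00 for all genes, and 42 of the 48 were above 0, against 50.4% of all genes. At 6 to 7 log2 CPM in the denominator group the median was 0.063 for members and 0.054 for 967 other genes. Less the median of the 200 other genes nearest in level the members had a median of 0.018, with 36 of 48 above 0. For Psmd13 the approximate 95% interval ran from -0.46 to 0.73, and for Psme2 from -0.62 to 0.53. Psmb5 had 203 CPM in the numerator group and 192 CPM in the denominator group of that comparison, and Psmb8 had 86.4 CPM in the numerator group and 82.8 CPM in the denominator group. At equal totals the median was 0.11. Macrophage markers in the second comparison had a median log2 fold change of -1.89, with 2 of 18 called lower and none higher, while the summed CPM of the 48 proteasome genes was 4045 in the numerator group and 3874 in the denominator group. From the match of the derived levels after the fit of the weights, the comparisons were read as sharing their denominator group, which the header does not name.

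Genes that work with the proteasome were described from lists drawn up with earlier results of these data known. The counts of each list stand beside 18.8% of all genes higher and 3.49% lower in the first comparison, with a median of -0.13. These shares are over genes of all levels and are not matched to the level of a list. Among 11 measured partners of the regulatory particle and maturation factors, 4 were higher in the first comparison and none lower, with a median of 0.50. Per the authors' deposited table the ubiquitin receptor Adrm1 stood at 1.91, the lid component Shfm1 at 1.55 and Pomp, the maturation factor of the core, at 1.53. Zfand5, a factor that binds the proteasome, stood at 1.73 per the authors' deposited table. Pomp had 273 CPM in the numerator group and 94.6 CPM in the denominator group. At equal totals these 4 stayed above 0. The deubiquitinases Usp14 at 0.00 and Uchl5 at 0.21 did not pass per the authors' deposited table. Of 13 shuttle factors and partners of the segregase Vcp, 4 were higher and none lower, with a median of 0.06. Per the authors' deposited table Vcp stood at 2.07, Nsfl1c at 1.497, Rad23b at 1.35 and Ubxn1 at 0.92, of which Rad23b and Ubxn1 lay below 0 at equal totals.

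Of 14 genes of ubiquitin and its activation, 10 were higher and none lower, with a median of 1.84, and the median stayed above 0 at equal totals, at 0.35. With the median of the genes nearest in level taken off, the list median was 0.25, with 10 of the 14 above 0. The polyubiquitin gene Ubb stood at 2.43 per the authors' deposited table and the conjugating enzyme Ube2l3 at 1.99. Of 10 transcription factors tied to proteasome genes, 2 were higher, near the 18.8% of all genes. Nfyc passed at 1.42 per the authors' deposited table, while Nfe2l1 at 0.41 (adjusted p = 0.354), Nfyb at -0.57 and Nfe2l2 at 0.08 (adjusted p = 0.984) did not pass. Among 10 targets of NRF2 (Nfe2l2) 4 were higher and 6 did not pass. Hmox1, which is also a macrophage marker, stood at 4.33 per the authors' deposited table. Prdx1 stood at 2.85, Txn1 at 2.26 and Slc7a11 at 1.72 per the authors' deposited table. Of those that did not pass, Nqo1 stood at -0.91 and Gclc at -0.38 per the authors' deposited table. Txnrd1 stood at 0.46, Gclm at 0.58, Gsr at 0.61 and Srxn1 at 0.68 per the authors' deposited table.

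Class I presentation, which uses the peptides of the immunoproteasome, had 9 of 15 genes higher and none lower, with a median of 1.94 and of 0.45 at equal totals. H2-D1 stood at 2.81, B2m at 2.73, H2-K1 at 2.63 and H2-Q7 at 2.99 per the authors' deposited table. The peptide transporter genes Tap1 and Tap2 did not pass, at 0.44 for each per the authors' deposited table (adjusted p = 0.339 for Tap1 and 0.336 for Tap2), and both lay at -1.05 at equal totals. Tap1, which shares its promoter stretch with Psmb9, had 82.3 CPM in the numerator group and 60.7 CPM in the denominator group. Class I genes are near copies of each other, so the split of reads between them is uncertain. In the interferon gamma axis 2 of 10 genes were higher, near the 18.8% of all genes, with a median of 0.34. Ifngr1, a receptor subunit, stood at 0.92 per the authors' deposited table and below 0 at equal totals. Irf1, which drives Psmb9 and Tap1, stood at 0.62 per the authors' deposited table (adjusted p = 0.176) and Jak2 at -0.36. In the cytosolic chaperonin, another complex of many subunits, all 8 genes were higher with a median of 1.32, led by Cct7 at 1.49, Cct3 at 1.38, Cct5 at 1.37 and Tcp1 at 1.34 per the authors' deposited table. At equal totals its median was -0.17, with 7 of the 8 below 0 and Cct7 at 0.00. The 8 chaperonin genes lay between 71.1 and 104 CPM in the denominator group. Among other genes at 6 to 7 log2 CPM there, a range that holds them, 66.0% were called higher. With the median of the genes nearest in level taken off, the chaperonin median was -0.006, with 3 of the 8 above 0. No gene of these pathway lists passed in the second comparison. At equal totals the medians of the first comparison also lay below 0 for the partners of the regulatory particle (-0.99), the shuttle factors (-1.43), the transcription factors (-1.33), the interferon gamma axis (-1.15) and the NRF2 targets (-0.85), each above the median of all genes in that setting (-1.62). Less the median of the genes nearest in level, medians were 0.43 for class I presentation and 0.64 for the NRF2 targets. They were 0.38 for the interferon gamma axis and 0.20 for the partners of the regulatory particle. The transcription factors then stood at 0.18 and the shuttle factors at 0.01. The part of level in the list counts was not tested.

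**Figure D4:**
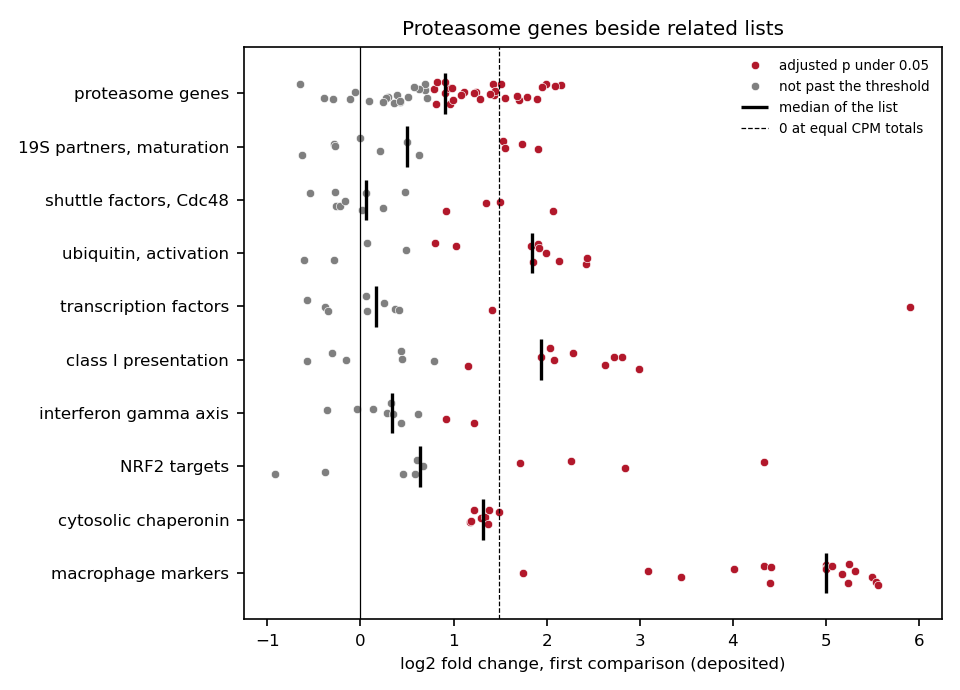
Log2 fold change of the first comparison (numerator over denominator group) for the proteasome genes, the related lists and macrophage markers. Points are genes, red past the threshold, the bar is the list's median and the dashed line is 0 at equal totals. The proteasome median of 0.91 lies left of the dashed line and the class I median of 1.94 right of it.

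Markers of the gate and of other cells were read in the same way, beside 18.8% of all genes higher and 3.49% lower. Among 10 progenitor genes 4 were higher, 1 was lower and 5 did not pass in the first comparison. Kit, which did not pass, was at 38.8 CPM in the numerator group and 58.6 CPM in the denominator group, and Mpo at 662 CPM in the numerator group and 125 CPM in the denominator group. In that comparison 10 of 10 megakaryocyte genes and 6 of 10 neutrophil genes were higher and none was lower. Of 11 dendritic cell genes 6 were higher and 1 was lower, and of 10 erythroid genes 5 were higher and 1 was lower. By contrast 6 of 9 B cell genes were lower and none higher, and among 8 genes of T and NK cells 3 were lower and 1 was higher. Megakaryocyte genes summed to 2070 CPM in the numerator group and 248 CPM in the denominator group. Neutrophil genes summed to 1825 CPM in the numerator group and 361 CPM in the denominator group. Dendritic cell genes summed to 1313 CPM in the numerator group and 368 CPM in the denominator group. Erythroid genes summed to 29359 CPM in the numerator group and 1744 CPM in the denominator group. B cell genes summed to 214 CPM in the numerator group and 449 CPM in the denominator group. T and NK cell genes summed to 208 CPM in the numerator group and 156 CPM in the denominator group, of which Nkg7 alone gave 202 CPM in the numerator group and 109.99 CPM in the denominator group. The other 7 summed to 5.43 CPM in the numerator group and 45.5 CPM in the denominator group. Genes with the smallest p in each list had these log2 fold changes per the authors' deposited table. Megakaryocyte genes were led by Pf4 at 3.43, Treml1 at 3.16, Cd9 at 3.16 and Gp1bb at 3.63. Neutrophil genes were led by S100a8 at 2.29, S100a9 at 2.51, Retnlg at 4.32 and Camp at 2.55. Dendritic cell genes were led by Itgax at 4.20, Cd74 at 2.54, Flt3 at -2.28 and Bst2 at 1.48. The other higher ones were H2-Aa at 1.85, H2-Ab1 at 1.87 and H2-Eb1 at 1.90. Siglech at -2.41, Ccr9 at -2.23, Zbtb46 at -1.43 and Clec9a at -0.24 did not pass. Erythroid genes were led by Hbb-b2 at 4.89, Hba-a1 at 3.97, Hba-a2 at 3.71 and Hbb-b1 at 3.33, near copies whose reads may be split. B cell genes were led by Igll1 at -2.75, Vpreb3 at -1.95 and Ebf1 at -3.42. T and NK cell genes were led by Klrd1 at -5.86, Lck at -2.55, Gzmb at -3.90 and Nkg7 at 0.88. Progenitor genes were led by Elane at 2.37, Prtn3 at 2.34, Mpo at 2.40 and Ctsg at 2.03, all granule genes, while Flt3 was lower at -2.28 and Cd34 (-0.69) and Kit (-0.60) did not pass. Macrophage genes were led by C1qa at 5.001, C1qc at 5.07, C1qb at 4.999 and Fcna at 5.24. At equal totals the list medians were 3.51 for macrophages, 1.54 for megakaryocytes, 0.68 for neutrophils, 0.12 for erythroid cells, -0.02 for dendritic cells, -1.15 for progenitors, -3.58 for B cells and -4.71 for T and NK cells. The part of these cells in the values of the proteasome genes was not tested.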

How the data were processed

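Libraries were made from 0.1 ug of total RNA of sorted cells with an Illumina TruSeq kit, per the labels' protocols. Bowtie 0.12.2 and mm8 appear in the submitters' processing notes without a role, and the sources used here name no counting or testing program. The authors deposited a log2 fold change and a mean log2 CPM per gene for 2 comparisons, with base 2 read from the match of derived levels. The p-values and their adjusted values were deposited by the authors, over 12791 genes. The table used holds no value per library, so the tests planned on libraries, depth and pairing could not be examined.

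Here the level of each group was derived from mean and fold change with fitted numerator weights of 0.48 and 0.59, and a standard error from the fold change and its p by a normal approximation. Calls at other scalings were remade with that error and Benjamini-Hochberg adjustment, also where p was above 0.9 and the error is not given. Python 3.11.15, pandas 2.3.3 and scipy 1.17.1 were used. The fit of the weights and the remaking of calls after a common shift were tested on simulated data. Those data had a shared denominator group and normal p-values built in, so neither assumption was tested. The settings that take off the trend over level were not tested. Members and lists were chosen with earlier results of these data known. Named genes were the catalytic and immunoproteasome genes, activators, inhibitor, all members not called, the highest and lowest of each class, and the 4 smallest p of each list, of which some are not reported here; others were chosen after their values were seen. Levels per kilobase were not compared, since length scaling of the CPM is unknown, and proteins were not compared. Reads were counted with strand use not stated, and 5 members overlap another gene of the table (Psma3, Psma4, Psmc3ip, Psmd10 and Psme4), so their values are uncertain to that extent.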

Additional observations from a re-analysis of the deposited data

How the results depend on the processing

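Of the 48 proteasome genes, 28 were called higher on the deposited scale and none lower. The count of 28 was unchanged with genes of at least 0 log2 CPM, and was 25 at an adjusted p under 0.01 and 33 with the median of all genes at 0. With equal CPM totals 1 was higher and 22 lower, and the median log2 fold change of 0.91 became -0.58. Less the median of other genes in the same step of level, 5 were higher and the median was 0.095. Less the median of the 200 nearest genes, an alternative chosen after seeing the data, 1 was higher and the median was 0.0042. Both last settings take off the trend over level by construction. Over all genes equal totals gave 534 higher and 7288 lower, against 2401 higher and 446 lower on the deposited scale. In the second comparison no member was called in any setting.

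At equal totals some named genes that were called on the deposited scale or in that setting changed sign, and their log2 fold changes were: Bst2 -0.016, Cct3 -0.11, Cct5 -0.12, Ifngr1 -0.57, Irf1 -0.87, Nfe2l1 -1.08, Nfyc -0.073, Nkg7 -0.61, Psma1 -0.58, Psma2 -0.0698, Psma6 -0.38, Psma7 -0.058, Psmb1 -0.041, Psmb10 -0.54, Psmb2 -0.41, Psmb4 -0.10, Psmb6 -0.25, Psmb8 -0.21, Psmb9 -0.53, Psmc2 -0.70, Psmc3 -0.58, Psmc4 -0.79, Psmc5 -0.68, Psmc6 -1.09, Psmd1 -1.06, Psmd10 -1.40, Psmd11 -0.27, Psmd12 -1.13, Psmd13 -0.80, Psmd14 -0.80, Psmd3 -0.67, Psmd4 -0.51, Psmd6 -0.98, Psmd7 -0.78, Psmd8 -0.49, Psme3 -0.87, Psmg1 -1.22, Psmg2 -1.06, Psmg3 -1.20, Psmg4 -0.92, Rad23b -0.14, Tcp1 -0.15, Ubxn1 -0.57. Less the median of the level step, such genes were: Ifngr1 -0.098, Nkg7 -0.13, Psma1 -0.11, Psma4 -0.15, Psmb9 -0.049, Psmc3 -0.11, Psmc5 -0.21, Psmd3 -0.19, Psmd4 -0.029, Psmd8 -0.017, Ubxn1 -0.091. These lists are not complete. Other named genes also changed sign and are not listed, such as Tap1 and Tap2 at -1.05 and Uchl5 at -1.28 at equal totals. Equal totals take 1.49 from every value by construction.

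No paired analysis was possible because the table used has no value per library. Leaving out replicates, a replicate block and another count test were not run for the same reason. Depth and spread between libraries limit every value to an unknown extent, and which labelled groups each comparison sets against each other is unknown.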
